A study of Mus with 6 samples.

Results

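The 33 genes described here are used as markers of adult neurogenesis and of dividing cells. They were listed by name. A gene was measured where a row of the array carried its symbol and no other, and where several rows did, that of the highest mean level was kept. By this rule 32 of the 33 genes were measured, among 19938 genes with such a row, and Ccnb1 was named on no row. All 32 matched protein-coding genes of RefSeq (GRCm38.p6) under the same symbol.

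Hippocampus came from C57BL/6JJmsSlc mice aged 10 to 11 weeks per the labels, all male per the methods. The 3 FSS mice had been loaded with forced swim stress (FSS) for 11 min per day on 5 days, and the 3 control mice had not swum. After the swimming the mice were also tested by tail suspension, and the whole hippocampus was taken, so that the dentate gyrus was measured together with every other field. Each array held RNA from 1 mouse and was read in 1 colour.

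In the adult hippocampus, new granule neurons arise in the subgranular zone of the dentate gyrus. Radial glia-like stem cells, which carry nestin and SOX2 and are kept undifferentiated by Notch signaling, give rise to intermediate progenitors that express the T-box factor EOMES. These divide and become neuroblasts and immature neurons, which carry doublecortin and then calretinin before they mature into granule cells. Proteins that copy DNA and build the mitotic spindle mark whichever cells are dividing, also outside this lineage. Stress is widely studied as a brake on this process. The dividing and immature cells are a small part of the tissue, and in RNA from a whole tissue fewer cells of a type and less RNA per cell cannot be told apart.

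None of these genes was lower in FSS mice at an unadjusted p under 0.05 from limma, and 2 of 32 were higher, Hes1 in the stem cell group and Aurkb in the mitosis group. The other 30 did not pass. Over all 21789 rows with 1 gene symbol, 2.49% were higher and 2.66% were lower at this p. Thus 6.25% of the measured genes were higher, which is 2 genes. After Benjamini-Hochberg adjustment over all rows, no row passed 0.05, and the smallest adjusted p among the 32 genes was 0.943 from limma. No member reached the thresholds of the methods, a log2 fold change of 0.5 in size with p under 0.05. With 3 mice in each group, the exact permutation test cannot go below p = 0.1.

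The differences were small and most lay on 1 side of 0. Of the 32 log2 fold changes (FSS minus control), 29 were above 0 and 3 below, or 90.6% above 0, against 53.0% of all rows. Their median was 0.084, against 0.0049 over all rows, and they ranged from -0.017 for Neurog2 to 0.24 for Eomes. In 4 genes, Hes1, Aurkb, Neurod1 and Dpysl3, all FSS mice lay above all control mice, or 12.5% against 6.02% of all rows. In no member did all FSS mice lie below all control mice, against 4.25% of all rows. The genes share 6 arrays, so these counts are not independent observations.

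**Figure D1:**
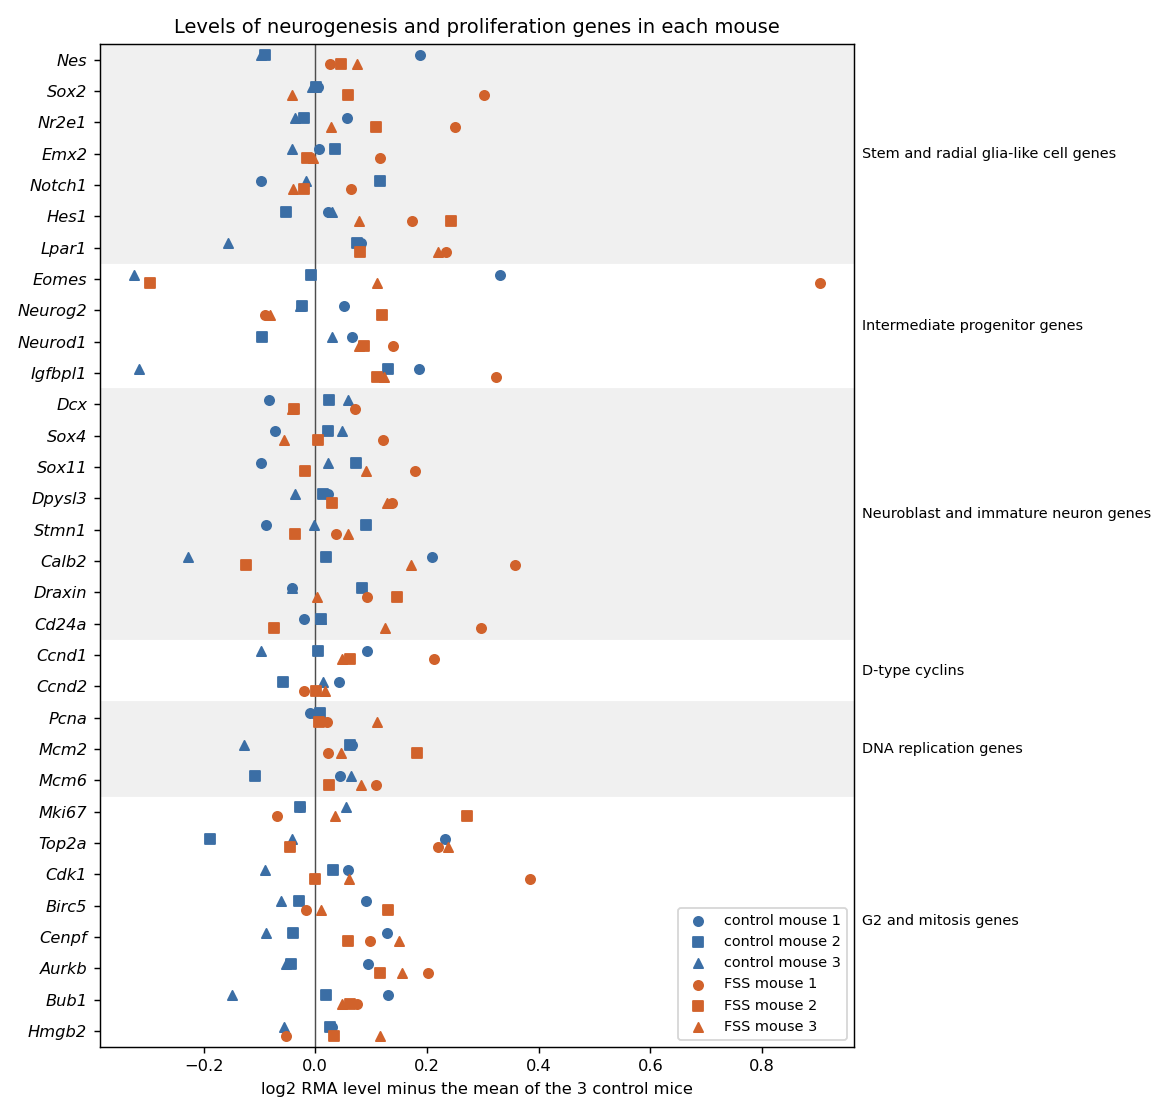
Level of each of the 32 genes in each mouse, on the log2 scale of robust multi-array averaging (RMA) with the mean of the 3 control mice set to 0 (x axis), grouped by role (y axis, shaded bands). Blue points are control mice and orange points FSS mice. The groups overlap in all genes but Hes1, Aurkb, Neurod1 and Dpysl3, and the circle of FSS mouse 1 is often the point farthest to the right.

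The arrays limited what could be seen. The standard errors (SE) of the log2 fold changes ran from 0.045 for Ccnd2 to 0.31 for Eomes, with a median of 0.066. The 95% interval from limma lay within 0.5 on either side of 0 for 30 of the 32 genes and reached beyond it for Eomes and Igfbpl1. Some of the genes were dim. The mean level of 6 of them, Eomes, Top2a, Cdk1, Birc5, Cenpf and Bub1, lay at or below 6.21, the 95th percentile of 1205 rows of olfactory and vomeronasal receptor genes, as did 26.7% of all rows. For these 6 a change of RNA can be hidden by the background of the array.

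**Figure D2:**
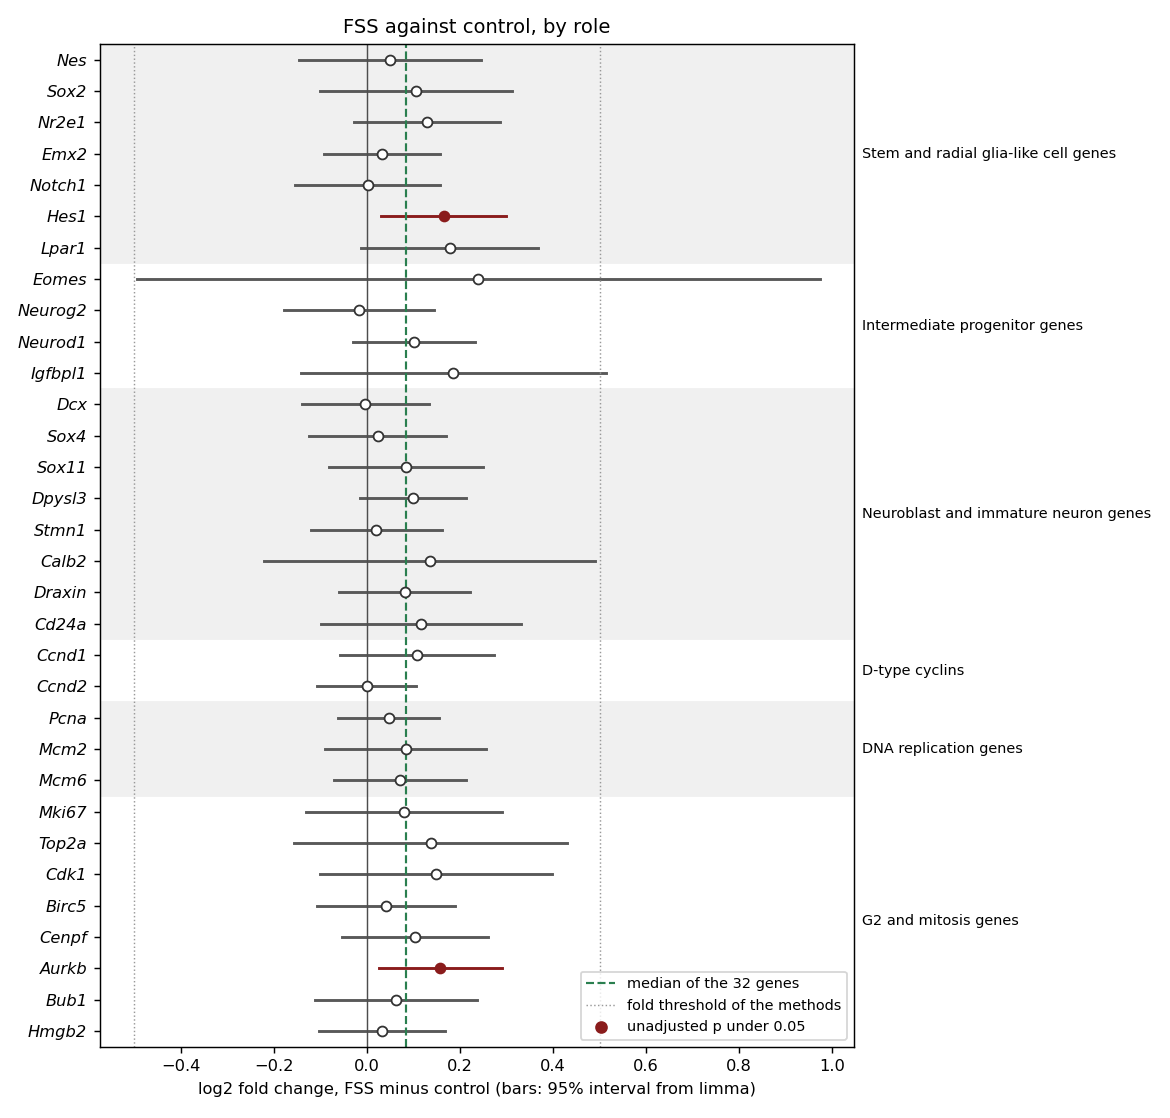
Log2 fold change of each gene, FSS minus control, with its 95% interval from limma (x axis), by role (y axis). Filled points have an unadjusted p under 0.05, the dashed line is the median of the 32 genes at 0.084, and the dotted lines mark 0.5 on either side of 0. Most points lie just right of 0, and only the bars of Hes1 and Aurkb leave 0 out.

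Among the 7 genes of stem and radial glia-like cells, Hes1 was higher in FSS mice, 6 did not pass, and the median log2 fold change was 0.11. Hes1, a repressor that Notch signaling induces and that keeps progenitors undifferentiated, had log2 levels of 7.49, 7.42 and 7.50 in control mice 1, 2 and 3, and of 7.65, 7.71 and 7.55 in FSS mice 1, 2 and 3. All FSS mice were above all control mice. The group levels were 7.47 ± 0.046 and 7.64 ± 0.083 (SD, n = 3), a log2 fold change of 0.16 (SE 0.056, limma adjusted p = 0.943), or 1.12-fold. Hes1 did not pass when control mouse 2 or FSS mouse 1 or 2 was left out, with log2 fold changes of 0.13 to 0.21 over all omissions of a mouse.

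Notch1, the receptor upstream of Hes1 in this pathway, had a log2 fold change of 0.0015 (SE 0.065). Nes encodes nestin, the intermediate filament that marks stem cells and also some vessel cells. Its log2 levels were 6.61, 6.33 and 6.33 in control mice and 6.45, 6.47 and 6.50 in FSS mice (log2 fold change 0.049, SE 0.082). Control mouse 1 was the highest of the 6 mice, and all FSS mice lay above the other control mice.

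Sox2, a transcription factor of stem cells and astrocytes, had nearly the same level in the 3 control mice, 9.26, 9.26 and 9.25. It spread over 9.56, 9.31 and 9.21 in FSS mice (log2 fold change 0.11, SE 0.087). FSS mouse 1 was the highest and FSS mouse 3 the lowest of all 6, so the FSS mice enclosed the control mice. Nr2e1 encodes TLX, a nuclear receptor that keeps adult stem cells self-renewing. It had log2 levels of 8.82, 8.74 and 8.72 in control mice and 9.01, 8.87 and 8.79 in FSS mice (log2 fold change 0.13, SE 0.066). The groups overlapped by control mouse 1 and FSS mouse 3 alone.

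Lpar1, a receptor for lysophosphatidic acid that is found on hippocampal progenitors and on oligodendrocytes, had the largest log2 fold change of this group, 0.18 (SE 0.080). Its control levels were 8.62, 8.61 and 8.38 and its FSS levels 8.77, 8.62 and 8.76. Control mouse 3 stood below the other 5 mice. Emx2, a homeobox factor of the hippocampal primordium, had a log2 fold change of 0.032.

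Of the 4 genes of intermediate progenitors none passed, and their median log2 fold change was 0.14. Eomes, the defining factor of these cells, had the largest log2 fold change of all 32 genes, 0.24, and also the largest SE, 0.31. Its log2 levels were 6.40, 6.06 and 5.74 in control mice and 6.97, 5.77 and 6.18 in FSS mice. FSS mouse 1 was far above the rest while FSS mouse 2 was close to the lowest control mouse, and without FSS mouse 1 the log2 fold change was -0.092. Igfbpl1, an insulin-like growth factor binding protein family member of progenitors and young neurons, had a log2 fold change of 0.19 (SE 0.14), with control mouse 3 at 6.40 and the other 5 mice between 6.83 and 7.04.

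Neurod1, a factor that drives progenitors to become granule neurons and that mature granule cells also express, had log2 levels of 9.38, 9.22 and 9.35 in control mice and 9.46, 9.41 and 9.40 in FSS mice. All FSS mice were above all control mice, at 9.42 ± 0.033 against 9.32 ± 0.085 (SD, n = 3), a log2 fold change of 0.10 (SE 0.055). Neurog2, a proneural factor that acts before Neurod1, had the lowest log2 fold change of all 32 genes, -0.017 (SE 0.067). Its levels of 6.97, 6.89 and 6.89 in control mice and 6.83, 7.04 and 6.84 in FSS mice overlapped widely.

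None of the 8 genes of neuroblasts and immature neurons passed either, and their median log2 fold change was 0.082. Dcx encodes doublecortin, the microtubule protein by which new neurons are usually counted. Its log2 levels were 8.81, 8.92 and 8.95 in control mice and 8.96, 8.85 and 8.85 in FSS mice. The group means were 8.89 in both, with a log2 fold change of -0.0036 (SE 0.057, 95% interval -0.14 to 0.13).

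Dpysl3, which encodes CRMP4, a protein of the growing neurite, had log2 levels of 9.02, 9.01 and 8.96 in control mice and 9.14, 9.03 and 9.13 in FSS mice. The groups did not overlap, with a difference of 0.099 (log2 fold change, SE 0.048). Between the nearest mice of the groups, control mouse 1 and FSS mouse 2, little distance was left.

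Sox11 and Sox4 are related factors that turn on genes of the immature neuron. Sox11 had levels of 8.47, 8.64 and 8.59 in control mice and 8.74, 8.55 and 8.65 in FSS mice (log2 fold change 0.084, SE 0.070), and Sox4 had a log2 fold change of 0.023. In both genes FSS mouse 1 was the highest mouse and the groups overlapped.

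Calb2 encodes calretinin, which marks a late immature stage but also interneurons and, in mice, mossy cells. Its levels were 9.79, 9.60 and 9.35 in control mice and 9.94, 9.46 and 9.76 in FSS mice (log2 fold change 0.13, SE 0.15). Cd24a, a surface protein of neuroblasts and also of ependymal cells, had a log2 fold change of 0.12, with FSS mouse 1 at 9.65, the control mice at 9.33 to 9.36 and FSS mouse 2 below them at 9.28. The axon guidance protein gene Draxin had a log2 fold change of 0.081, and Stmn1, which encodes a microtubule regulator that mature neurons also contain, one of 0.020.

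The remaining 13 measured genes belong to the cell cycle, and their median log2 fold change was 0.079. The D-type cyclins carry signals from outside the cell into G1, and neither passed. Ccnd2, the D-type cyclin on which adult hippocampal progenitors depend, had log2 levels of 10.72, 10.62 and 10.69 in control mice and 10.65, 10.68 and 10.69 in FSS mice. Its log2 fold change was -0.0005, with the smallest SE of all 32 genes and a 95% interval of -0.11 to 0.11. Ccnd1, which oligodendrocyte precursors and microglia also use, had levels of 9.94, 9.85 and 9.75 in control mice and 10.06, 9.91 and 9.89 in FSS mice (log2 fold change 0.11, SE 0.070). FSS mouse 1 was the highest mouse and control mice 2 and 3 were the lowest.

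None of the 3 DNA replication genes passed, and their median log2 fold change was 0.072. Pcna encodes the clamp that holds DNA polymerase on its template and is also used in DNA repair. It stayed between 9.94 and 9.97 in all mice but FSS mouse 3, which had 10.06 (log2 fold change 0.046, SE 0.045). Mcm2, a subunit of the replicative helicase that licensed cells load before S phase, had levels of 7.43, 7.43 and 7.24 in control mice and 7.39, 7.55 and 7.41 in FSS mice. Its log2 fold change was 0.083 (SE 0.073), and that of Mcm6, of the same complex, was 0.072. Control mouse 3 was the lowest mouse for Mcm2 and control mouse 2 for Mcm6.

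Of the 8 measured genes of G2 and mitosis, Aurkb was higher in FSS mice and 7 did not pass, with a median log2 fold change of 0.091. Aurkb encodes Aurora B, the kinase of the chromosomal passenger complex that corrects the attachment of chromosomes to the spindle. Its log2 levels were 6.88, 6.75 and 6.74 in control mice and 6.99, 6.91 and 6.94 in FSS mice, and the groups did not overlap. The means were 6.79 ± 0.082 and 6.95 ± 0.043 (SD, n = 3), a log2 fold change of 0.16 (SE 0.056, limma adjusted p = 0.943), or 1.11-fold. Aurkb did not pass when control mouse 2 or 3 or FSS mouse 1 or 3 was left out, nor with an intensity trend and robust moderation, where Lpar1 passed and the count stayed at 2. Its log2 fold change lay between 0.13 and 0.20 over the omissions. Birc5, which encodes survivin, a partner of Aurora B in that complex, had a log2 fold change of 0.041 (SE 0.062).

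Mki67 encodes the chromosome surface protein Ki-67, the usual marker of proliferation. Its log2 levels were 6.33, 6.33 and 6.41 in control mice and 6.28, 6.62 and 6.39 in FSS mice (log2 fold change 0.079, SE 0.088). FSS mouse 2 was the highest and FSS mouse 1 the lowest, and without FSS mouse 2 the log2 fold change was -0.017. Top2a, which encodes the topoisomerase that untangles sister chromatids, had levels of 5.86, 5.44 and 5.59 in control mice and 5.85, 5.58 and 5.87 in FSS mice (log2 fold change 0.14, SE 0.12). The control mice covered almost the whole range. A second row with the symbol Top2a alone, at a mean level of 2.83, had a log2 fold change of 0.31 and did not pass.

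Cdk1, the kinase that starts mitosis with B-type cyclins, had levels of 5.99, 5.96 and 5.84 in control mice and 6.31, 5.93 and 5.99 in FSS mice (log2 fold change 0.15, SE 0.10). FSS mouse 1 stood far above the rest, and the other FSS mice lay within or just at the edge of the control range. The kinetochore protein gene Cenpf had a log2 fold change of 0.10, the spindle checkpoint kinase gene Bub1 one of 0.062, and Hmgb2, a chromatin protein of dividing cells and neural progenitors, one of 0.032. Hmgb2 had 4 rows with its symbol alone, 3 with log2 fold changes of 0.032 to 0.046 and 1 with -0.015.

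The mice did not contribute alike. FSS mouse 1 had the highest level of the 6 mice in 17 of the 32 genes, or 53.1%, against 21.3% of all rows. Control mouse 3 had the lowest level in 17 genes, or 53.1%, against 19.3% of all rows. The deviation from the 6-mouse mean, averaged over the 32 genes, was 0.11 for FSS mouse 1 and -0.099 for control mouse 3 on the log2 scale, and between -0.042 and 0.023 for the other 4 mice. The mean level over the 32 genes was 7.90, 7.85 and 7.79 in control mice and 8.002, 7.889 and 7.92 in FSS mice. FSS mouse 2 was thus below control mouse 1. The median log2 fold change was 0.057 when FSS mouse 1 was left out and 0.059 when control mouse 3 was. When control mouse 2 or FSS mouse 1 was left out, 0 genes were higher. Leaving out control mouse 3 gave 1, and leaving out control mouse 1 or FSS mouse 2 gave 4.

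FSS mouse 1 stood out in the neurogenesis genes more than in those of the cell cycle. Its mean deviation was 0.26 over the 4 progenitor genes, 0.13 over the immature neuron genes and 0.12 over the stem cell genes. It was 0.069 over the D-type cyclins, 0.057 over the G2 and mitosis genes and 0.017 over the DNA replication genes. The progenitor mean leaned on the dim Eomes, at 6.97 in FSS mouse 1 and 5.74 to 6.40 in the other mice. In the stem cell and DNA replication genes the mean level of every FSS mouse was above that of every control mouse, but narrowly. The highest control mouse had 8.31 and the lowest FSS mouse 8.318 in the stem cell genes. In the DNA replication genes these levels were 8.293 and 8.31. In the progenitor, immature neuron, D-type cyclin and G2 and mitosis genes the groups overlapped. By the SD of all their values the arrays were of 2 kinds, at 2.22 to 2.23 (control mice 1 and 2, FSS mouse 2) or at 2.26 to 2.27 (control mouse 3, FSS mice 1 and 3). With this split as a block the median was 0.093 and 3 genes were higher.

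**Figure D3:**
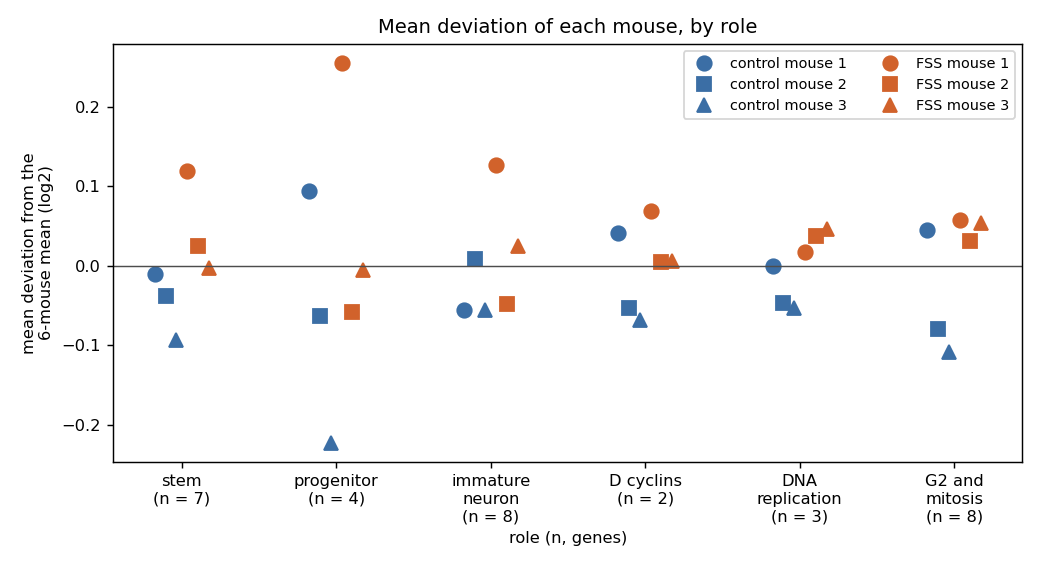
Mean deviation of each mouse from the mean of the 6 mice, on the log2 scale (y axis), averaged over the genes of each role (x axis). Blue points are control mice and orange points FSS mice, 1 point per mouse. FSS mouse 1 lies at 0.26 in the progenitor genes and control mouse 3 at -0.22, and the other roles spread less. The progenitor genes are 4, with the dim Eomes among them.

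Pairs of these genes were also compared by how they deviated from their group means over the 6 mice. Over 496 pairs the median Pearson r was 0.15, and 295 pairs were above 0. The pairs share the same arrays, and with 6 mice the values are a description only. The highest were Cdk1 with Eomes (r = 0.965, Spearman rho 1.0) and Cdk1 with Emx2 (r = 0.965, rho 0.943), all 3 genes having their highest level in FSS mouse 1. Cdk1 and Eomes are both among the 6 dim genes. Dcx and Sox4, both of immature neurons, followed (r = 0.943, rho 0.943). The lowest were Notch1 with Ccnd2 (r = -0.984, rho -0.943) and Mki67 with Dpysl3 (r = -0.951, rho -0.943). These pairs were picked as the extremes of the 496, and whether their genes vary together or apart was not tested.

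Other genes of the same steps, of cell cycle inhibition and of the niche, 175 measured of 182 listed, were closer to 0 as a whole. At an unadjusted p under 0.05 from limma, 14 were higher, 8 were lower and 153 did not pass. These are 8.0% higher and 4.57% lower, against 2.49% and 2.66% of all rows. In 13.1% all FSS mice lay above all control mice and in 6.86% below, against 6.02% and 4.25% of all rows. Of the 175, 53.1% had a log2 fold change above 0, and their median was 0.011. The number higher was 9 without control mouse 2 or control mouse 3. The number lower was 2 when control mouse 2 or FSS mouse 3 was left out, 3 when FSS mouse 1 was, and 4 when control mouse 3 or FSS mouse 2 was.

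Of 26 other genes of neural stem cells, 6 were higher, 2 were lower and 18 did not pass, with a median of 0.030. The number higher was 3 when control mouse 3 or FSS mouse 1 or 3 was left out. Id3, an inhibitor of differentiation that BMP signaling induces, had log2 levels of 7.77, 7.75 and 7.84 in control mice and 8.19, 8.13 and 8.12 in FSS mice (log2 fold change 0.36, SE 0.046, limma adjusted p = 0.872, the smallest of any row). Fabp7, a fatty acid binding protein of radial glia and astrocytes, had levels of 11.96, 11.56 and 11.98 in control mice and 12.23, 12.25 and 12.23 in FSS mice (log2 fold change 0.41, SE 0.11). In both genes the groups did not overlap, and both passed under every alternative in which they were tested.

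Hopx, a marker of quiescent stem cells, was also higher (log2 fold change 0.24, SE 0.083), though not without FSS mouse 1 or with the spread of the arrays as a block. So was Notch2 (log2 fold change 0.12, SE 0.043), a receptor that keeps stem cells quiescent, though not when control mouse 2 or 3 or FSS mouse 2 or 3 was left out or with other normalizations. Fgfr3 (-0.15) and the aldolase gene Aldoc (-0.10), both strong in astrocytes, were lower, but Aldoc did not pass without any 1 of the 6 mice. Without any 1 mouse other than control mouse 1, none of the 26 genes was lower.

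Of 30 other genes of immature neurons and young granule cells, 3 were higher, 2 were lower and 25 did not pass, with a median of 0.031. Prox1, the homeobox factor that granule cells keep from their birth onward, had levels of 9.94, 9.83 and 9.88 in control mice and 10.02, 10.05 and 10.01 in FSS mice (log2 fold change 0.15, SE 0.046), and did not pass without control mouse 2. Insm2 (log2 fold change 0.16) and Marcksl1 (0.12) were the others that were higher, and both calls were lost when control mouse 1 or 3 or FSS mouse 3 was left out. Dpysl4, of the same family as Dpysl3, was lower (log2 fold change -0.17, SE 0.047), with 8.96, 9.08 and 9.03 in control mice and 8.88, 8.85 and 8.85 in FSS mice. The dim Neurod4 was also lower (-0.14). Without control mouse 3, 1 gene was higher, and 1 was lower when control mouse 2 or 3 or FSS mouse 1 or 3 was left out.

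**Figure D4:**
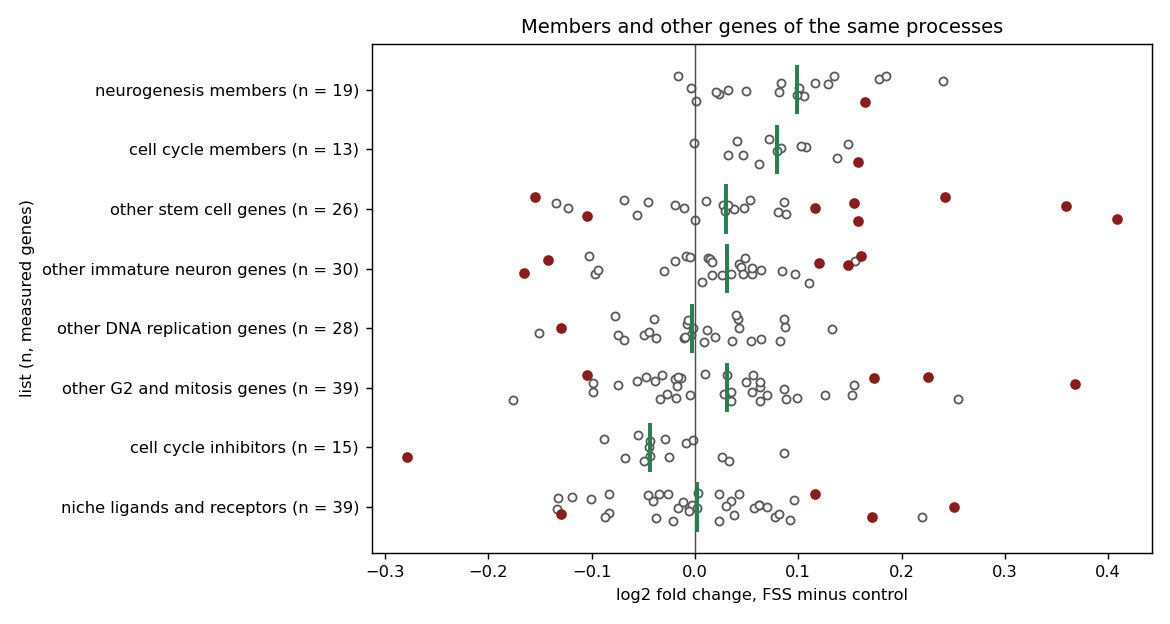
Difference in log2 level between FSS and control mice (x axis) of the 32 genes, split into neurogenesis and cell cycle genes (the top rows, marked as members), and of other genes of the same processes (the rows below), with 1 point per gene. Filled points have an unadjusted p under 0.05 and the vertical bars are medians. The medians of the top rows are 0.099 and 0.079, and those of the other lists lie between -0.044 and 0.031.

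Of 28 other DNA replication genes, E2f2, a transcription factor of S phase genes, was lower (log2 fold change -0.13), 0 were higher and 27 did not pass, with a median of -0.0029. E2f2 did not pass when control mouse 1 or 2 or FSS mouse 1 or 3 was left out. Without FSS mouse 2, 2 of the 28 were higher, and without control mouse 3, 1 was higher and 2 were lower. Of 39 other genes of G2 and mitosis, 3 were higher, 1 was lower and 35 did not pass, with a median of 0.031, and 19 of the 39 were at or below the level of the receptor genes. The higher ones were Ckap2 (log2 fold change 0.17), Prc1 (0.37) and Spc25 (0.23), which encode proteins of the spindle and the kinetochore, and Kif2c (-0.10), a microtubule depolymerase gene, was lower. All 4 lay in that dim range. Kif2c did not pass without any 1 of the 6 mice, Prc1 not without control mouse 3, and Spc25 not without control mouse 1 or control mouse 2. With an intensity trend and robust moderation, Ckap2, Spc25 and Kif2c did not pass.

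Genes that restrain the cell cycle lay mostly below 0. Of 15 measured, 3 had a log2 fold change above 0 and 12 below, with a median of -0.044. Only Btg2 passed, an antiproliferative gene that neurogenic progenitors express and that neuronal activity induces. Its log2 levels were 8.55, 8.59 and 8.51 in control mice and 8.23, 8.39 and 8.19 in FSS mice, so that the groups did not overlap (log2 fold change -0.28, SE 0.063, limma adjusted p = 0.943). Without control mouse 1, 2 of these genes were lower. Cdkn1a and Trp53 were on this list but were not measured. Cdkn1b and Cdkn1c, inhibitor genes tied to quiescence of adult stem cells, did not pass. Their log2 fold changes were -0.044 (SE 0.051) and -0.050 (SE 0.063).

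Ligands and receptors of the neurogenic niche had a median of 0.0018 over 39 genes, of which 3 were higher, 1 was lower and 35 did not pass. Bmp4, a ligand that holds stem cells in quiescence, had levels of 7.92, 7.84 and 7.96 in control mice and 8.15, 8.25 and 8.07 in FSS mice (log2 fold change 0.25, SE 0.060). Bmp6, a related ligand, was higher by 0.17, but passed only with all mice or without FSS mouse 1 among the omissions, and Notch2 was the third. Shh, a ligand that makes progenitors divide, was lower (log2 fold change -0.13, SE 0.054), a call that was lost in every omission but that of control mouse 1. Leaving out control mouse 2 or 3 or FSS mouse 2 left 1 gene higher. None was lower when control mouse 2 or 3 or FSS mouse 2 or 3 was left out, and 2 were when control mouse 1 was. Bmp4 passed in every one of these omissions.

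Several of the 32 genes are also expressed by other cells of the tissue, whose markers were measured beside them. All 10 markers of dentate granule cells and all 9 of CA pyramidal cells were above the level of the receptor genes. Of the granule cell markers, 3 (Prox1, Stxbp6 and Trpc6) were higher and 0 were lower, and all 10 had a log2 fold change above 0. Their mean level was 9.23 to 9.36 in control mice and 9.38 to 9.39 in FSS mice. Leaving out control mouse 2 left 0 of them higher, leaving out FSS mouse 2 left 1, and leaving out control mouse 1 gave 5. Of the 9 pyramidal cell markers none passed, with mean levels of 9.92 to 9.97 in both groups.

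Astrocytes share Sox2, Hes1, Notch1 and Nr2e1 with stem cells. Of 9 astrocyte markers, 3 (Gfap, Aqp4 and Gja1) were higher and 2 (Gjb6 and Aldoc) were lower, and their mean level was 10.48 to 10.53 in control mice and 10.51 to 10.55 in FSS mice. Leaving out control mouse 2 or any 1 FSS mouse left 1 higher, and leaving out any 1 mouse left 1 lower at most. Oligodendrocytes express Lpar1, and of 9 of their markers none passed (4 were higher without FSS mouse 2), with mean levels of 10.62 to 10.71 in control mice and 10.44 to 10.83 in FSS mice. Oligodendrocyte precursors and microglia contain Ccnd1 and can divide. Of 10 precursor markers, 3 (C1ql1, Olig2 and Gpr17) were higher, with mean levels of 8.92 to 8.95 in control mice and 8.96 to 9.08 in FSS mice. The other 7 did not pass, among them Pdgfra (log2 fold change -0.067) and Cspg4 (0.0072), and 3 of the 10 were below 0.

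Of 11 microglial markers, 3 (Trem2, Siglech and Cx3cr1) were higher, with mean levels of 8.51 to 8.64 in control mice and 8.66 to 8.73 in FSS mice, and the count was 6 without control mouse 1. No endothelial marker of 9 and 1 mural marker of 10 (Acta2) was higher, cells that express Nes. Of 9 interneuron, 6 mossy cell and 10 thalamic markers, sources of Calb2, none passed, Calb2 itself being on the mossy cell and thalamic lists. Of 10 markers of the subventricular zone and striatum, which hold neuroblasts of another niche, none passed, and 2 were at or below the level of the receptor genes. Ttr (log2 fold change 0.95), of 9 choroid plexus markers, was higher, and so was Lum, of 10 meningeal ones. Of 10 ependymal markers none passed, and of 3 blood markers S100a9 was lower. Ttr did not pass without FSS mouse 1 or 3, Acta2 not without FSS mouse 2, and S100a9 not when control mouse 1 or 2 or FSS mouse 1 or 3 was left out. Without control mouse 1, 2 endothelial markers were higher. FSS mouse 1 had the highest mean level of the 6 mice on the subventricular zone and striatum, thalamic, mossy cell and ependymal lists. It was 7.767, 7.822, 8.182 and 6.944, against at most 7.685, 7.79, 8.136 and 6.877 in the other mice. Control mouse 3 was the lowest on the thalamic and mossy cell lists, and FSS mouse 2 on the subventricular and ependymal ones. On the endothelial, mural and meningeal lists FSS mouse 2 was the highest. The part of these cells in the levels of the 32 genes was not tested.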

How the data were processed

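Hippocampal RNA of 3 control and 3 FSS mice was read on Mouse Gene ST arrays, each of a single mouse. The paper states that more mice were run on arrays for FSS, of which 3 were picked at random for its plot. Only these 3 control and 3 FSS arrays were available here. The deposited values are log2 levels from RMA, run by the authors, which subtracts background, equalises the arrays and summarises the probes of each transcript cluster. The Affymetrix Expression Console is named for this in the submitters' processing notes. Of 28944 rows, 21789 had 1 symbol, 1621 had several and 5534 had none, and the last 2 kinds were not used to measure a gene. Since the table names no genome build, no coordinates were used, and no sequences were analysed here.

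The comparison used limma 3.58.1 (R 4.3.3, functions lmFit and eBayes) on these 21789 rows without covariates. A call was an unadjusted p below 0.05, and Benjamini-Hochberg adjusted p-values were taken over all rows. The methods give 0.5 as the threshold on the log2 fold change. The step was tested on simulated data. Precision is limited by the number of arrays. The labels do not say whether mice shared a cage or litter.

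The members and the other gene lists were chosen with earlier results of these data known, so no list was tested as a set. Mouse by mouse values are given for genes that passed, genes whose groups did not overlap, the usual markers of each step and the largest and smallest log2 fold change. From the other lists, at most 4 passing genes in each direction were named by p, and Cdkn1b, Cdkn1c and the cell type markers were added after their values were seen. The 16 alternatives were other variance models, array weights, normalizations, a filter on dim rows, all rows, the mean of a gene's rows, blocks for the replicate number and for the spread of the arrays, and leaving out each mouse. The percentage above 0, the other lists and the named genes on them were added to the alternatives after seeing the data.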

Additional observations from a re-analysis of the deposited data

How the results depend on the processing

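The median log2 fold change of the 32 genes (0.084) stayed above 0 under all 16 alternatives and lay between 0.057 and 0.11 when 1 mouse was left out. The percentage above 0 (90.6) lay between 84.4 and 93.75, and 0 genes were lower throughout. Some alternatives cannot change a log2 fold change, so the median and this percentage were bound to stay the same in them. These were each gene's own variance, the intensity trend with robust moderation, all rows and the replicate block. The number of higher genes (2) was 4 with array weights and 0 to 4 when a mouse was left out. It was 0 at the thresholds of the methods, at an adjusted p under 0.05 and at an unadjusted p under 0.01. With the replicate number as a block it was 3, the third gene being Nr2e1, and the median was 0.084. Deviations of mice with the same number correlated at -0.048, 0.15 and 0.24, and those of mice with different numbers at -0.26 to 0.13. With 3 mice in each group these values cannot settle whether the numbers pair the mice. The main comparison did not pair them. Genes that changed sign, none of which passed, were Dcx with array weights (0.012), Notch1 with quantile (-0.017) and cyclic loess normalization (-0.014), Stmn1 with cyclic loess (-0.0025) and Neurog2 with the spread of the arrays as a block (0.024). When 1 mouse was left out, the log2 fold change ranged from -0.092 to 0.51 for Eomes, -0.085 to 0.020 for Neurog2, -0.045 to 0.026 for Dcx, -0.026 to 0.063 for Sox4, -0.024 to 0.065 for Stmn1, -0.017 to 0.15 for Mki67, -0.029 to 0.021 for Ccnd2, -0.0035 to 0.087 for Birc5, -0.013 to 0.13 for Bub1, -0.010 to 0.056 for Emx2, -0.047 to 0.059 for Notch1 and -0.0097 to 0.075 for Hmgb2. Among the genes that kept their sign, the range was 0.0005 to 0.14 for Nes (which passed without control mouse 1), 0.0077 to 0.18 for Sox2, 0.027 to 0.28 for Igfbpl1, 0.020 to 0.26 for Calb2, 0.026 to 0.21 for Cd24a (which passed without FSS mouse 2) and 0.030 to 0.22 for Cdk1. Of the genes named on the other lists, Id3, Fabp7, Bmp4, Btg2 and Dpysl4 passed under all 16 alternatives. Calls were lost for Hopx, Prc1, Spc25, Bmp6, Fgfr3, Insm2 and Shh with each gene's own variance, for Ckap2, Spc25, Insm2, E2f2, Kif2c, Neurod4 and Shh with the intensity trend, for Notch2, Marcksl1, Neurod4 and Kif2c with both other normalizations, for Bmp6 with the quantile one, for Hopx, Spc25, Fgfr3, Insm2, E2f2, Kif2c and Shh with the spread of the arrays as a block, for Bmp6, Fgfr3 and Aldoc with array weights, for Kif2c, Shh and Aldoc with all rows, and for Kif2c, Insm2, Notch2 and Aldoc with the replicate block. The causes were not tested. The filter on dim rows left 15 of the 32 genes, without Hes1 and Aurkb, and 2 others, Lpar1 and Dpysl3, were higher. A planned search for promoter motifs was not run.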
